A study of Mus musculus with 4 samples.

Results

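The fibroblast growth factor (FGF) receptors and ligands were examined as 10 genes, out of 54393 gene identifiers in the deposited table. They are 5 receptor genes (Fgfr1, Fgfr2, Fgfr3, Fgfr4 and Fgfrl1) and 5 ligand genes (Fgf1, Fgf2, Fgf7, Fgf10 and Fgf18). They were chosen by name, by matching each identifier to the GENCODE M21 mouse annotation, and all 10 passed the filter on low counts. The libraries came from mouse mammary glands, and the labels name iK14-Cre; DNp63 f/f mice. In these a Cre recombinase under keratin 14 control removes ΔNp63, the N-terminally truncated p63 of basal epithelium, after tamoxifen. There were 2 libraries of Dnp63 cKO (conditional knockout, cKO) and 2 of wild type (WT), and each genotype had 1 library 5 weeks and 1 library 10 days after tamoxifen given at 4 weeks of age. The labels describe tamoxifen (1.5 mg/ml) for both genotypes and do not say which of the alleles the WT animals carried. A separate growth note in the labels gives gland ages of 5 and 35 weeks. The first is near 4 weeks plus 10 days, but 35 weeks does not match 4 weeks plus 5 weeks, so the age of the later libraries is uncertain. Each library was made from 100000 cells left after cells bearing CD45, CD31 or Ter119 were sorted out. The labels do not state whether each library had its own animals, and no genotype had a second library at the same time. The p-values here therefore do not measure spread among replicates. They rest on how much the genotype difference disagreed between the 2 times, and on spread borrowed from other genes. Part of that spread may be technical.

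Most FGFs are secreted proteins that bind receptor tyrosine kinases together with heparan sulphate on the cell surface, and the receptors signal through the adaptor FRS2 to the RAS and MAP kinase relay. Alternative splicing of Fgfr1, Fgfr2 and Fgfr3 gives a IIIb form, typical of epithelium, and a IIIc form, typical of mesenchyme. Fgf7 and Fgf10 are made by mesenchyme and act mainly on the IIIb form of FGFR2. In the mouse mammary gland Fgf10 and Fgfr2 are needed for the embryonic gland to form, and epithelial Fgfr2 for ducts to grow at puberty. Gene counts hold all splice forms, so the IIIb and IIIc forms were not told apart here.

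Deposited counts summed to between 31714181 and 79122250 per library, and the deepest library was WT at 5 weeks. The targeted gene Trp63 stood at 25.5 and 12.8 CPM (read counts relative to library size, scaled by TMM) in cKO at 5 weeks and 10 days, against 160.5 and 46.8 CPM in WT, in the direction of the genotype labels. Its log2 fold change was -2.26 (SE 0.267, adjusted p = 0.107 in edgeR's quasi-likelihood test), and the count covers all isoforms. The labels call the cells mammary epithelial cells, but fibroblast markers were abundant in every library. The sum of 12 fibroblast markers (33795 to 64176 CPM) was above those of 15 luminal (8188 to 10182 CPM) and 13 basal markers (1867 to 18992 CPM). These sums are not scaled by gene length and do not give shares of cells. In such mixed bulk samples, fewer cells of a type and less RNA per cell cannot be told apart.

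Per length, Fgfr1 and Fgfr2 were the most abundant of the 10 genes in every library. On the RPKM scale (CPM per kilobase of summed exons) Fgfr1 averaged 55.3 and ran from 47.9 to 72.6, and Fgfr2 averaged 36.0 and ran from 22.7 to 45.3. The receptor-like gene Fgfrl1, whose protein lacks the tyrosine kinase domain, came next by mean at 12.1 RPKM (10.0 to 14.5). Its range overlapped those of Fgfr3, at 14.0 RPKM in WT at 5 weeks, and Fgf10, at 13.4 RPKM in cKO at 5 weeks. Fgf1 (7.12 RPKM), Fgfr3 (6.40) and Fgf10 (6.01) followed, with ranges that overlapped each other. Fgf7 (3.66), Fgf2 (2.93) and Fgf18 (2.32) overlapped too, and Fgfr4 was the lowest at 0.509 RPKM (0.311 to 0.811). Ranges did not overlap between Fgfr1 and Fgfr2, Fgfr2 and Fgfrl1, or Fgfrl1 and Fgf1, and every later gene overlapped the next in this order. The spread over libraries includes genotype and time. Taking the longest protein-coding transcript as length was a choice made after seeing the data. It swapped the mean ranks of Fgf1 and Fgfr3 (9.77 and 10.8) and left the other mean ranks as they were. The means of Fgfr1 and Fgfr2 were then 108 and 86.2. With this length the range of Fgfr1 overlapped that of Fgfr2, and the range of Fgfrl1 overlapped that of Fgf1. Fgfr2 was then above Fgfr1 in both 5-week libraries. Among all genes tested, Fgfr1 lay between the 94.3rd and 96.7th percentile of RPKM and Fgfr4 between the 14.8th and 27.5th.

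**Figure D1:**
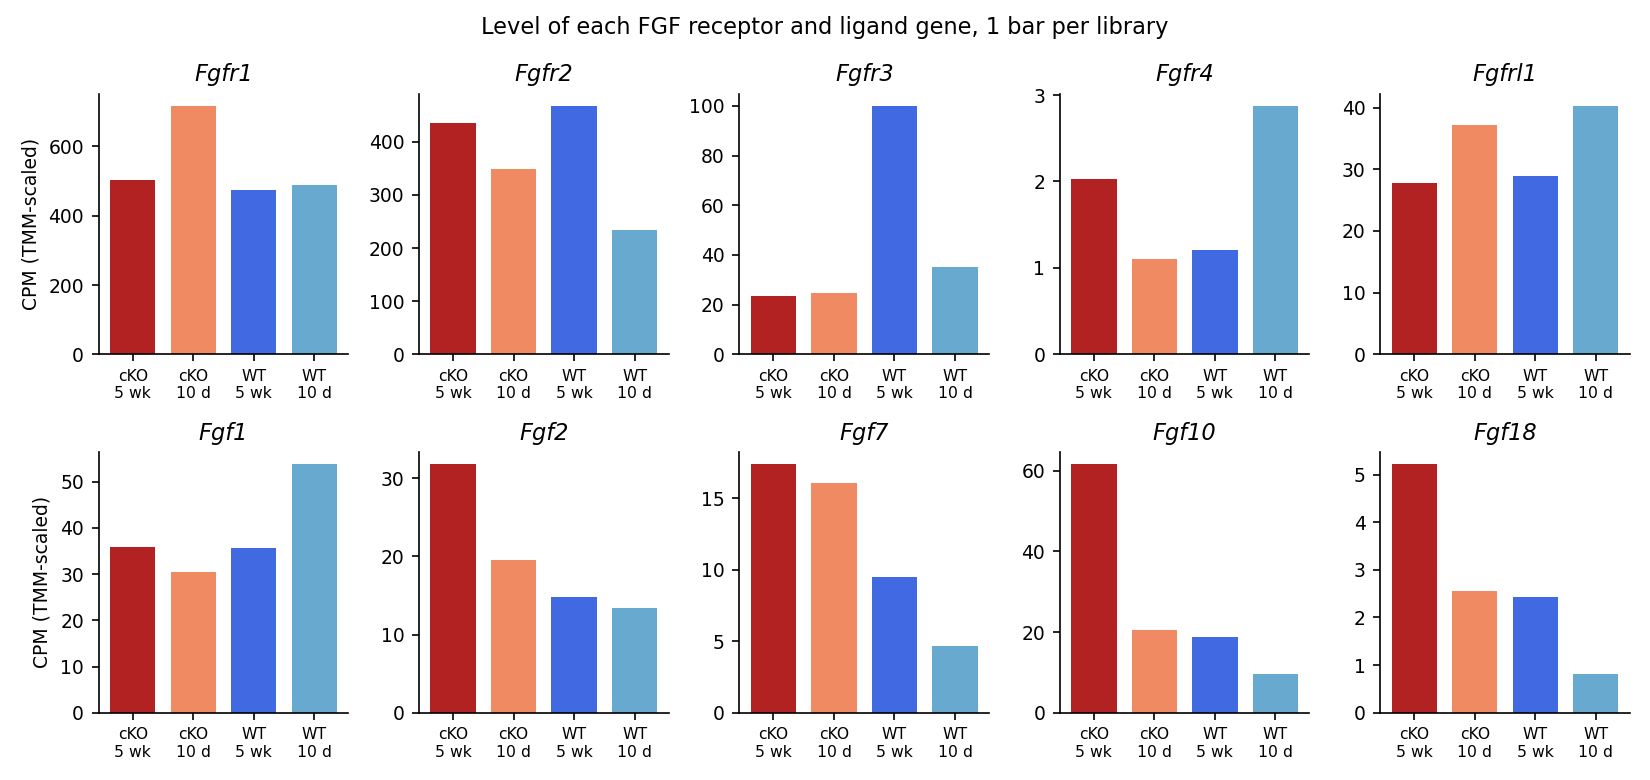
Level of each of the 10 genes in CPM (TMM-scaled, vertical axis from 0), with 1 bar per library in the order cKO 5 weeks, cKO 10 days, WT 5 weeks and WT 10 days. Both cKO bars are above both WT bars for Fgfr1, Fgf2, Fgf7, Fgf10 and Fgf18 and below them for Fgfr3, where WT at 5 weeks reaches 100.02 CPM.

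The genotype comparison asked which of these genes differed between cKO and WT with time held constant. Transcripts of Fgf10, Fgf7, Fgf18 and Fgf2 were higher in both cKO libraries than in either WT library, by 2.66-, 2.50-, 2.57- and 1.77-fold in the fitted estimate, and Fgfr3 was 2.46-fold lower. Fgfr1 and Fgfr2, the main receptors, differed by 1.25- and 1.18-fold. By edgeR none of the 10 had an adjusted p under 0.05, which 0.0581% of the 18917 genes tested had. At an unadjusted p under 0.05 there were 5 of the 10, where 11.6% of all genes tested were. Of these, 4 were higher in cKO, where 5.8% of all genes were, and 1 was lower, where 5.8% were. In DESeq2, Fgf7 and Fgf10 passed as higher and Fgfr3 as lower, where 2.71% of all genes did. The genotypes did not overlap in 6 of the 10 genes, where 45.9% of all genes tested did not overlap. In 5 genes both cKO libraries were above both WT libraries (22.6% of all genes) and in 1 both were below (23.3% of all genes). Log2 fold changes had a median of 1.32 for the 5 ligands and -0.09 for the 5 receptors, against -0.01 for all genes tested.

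**Figure D2:**
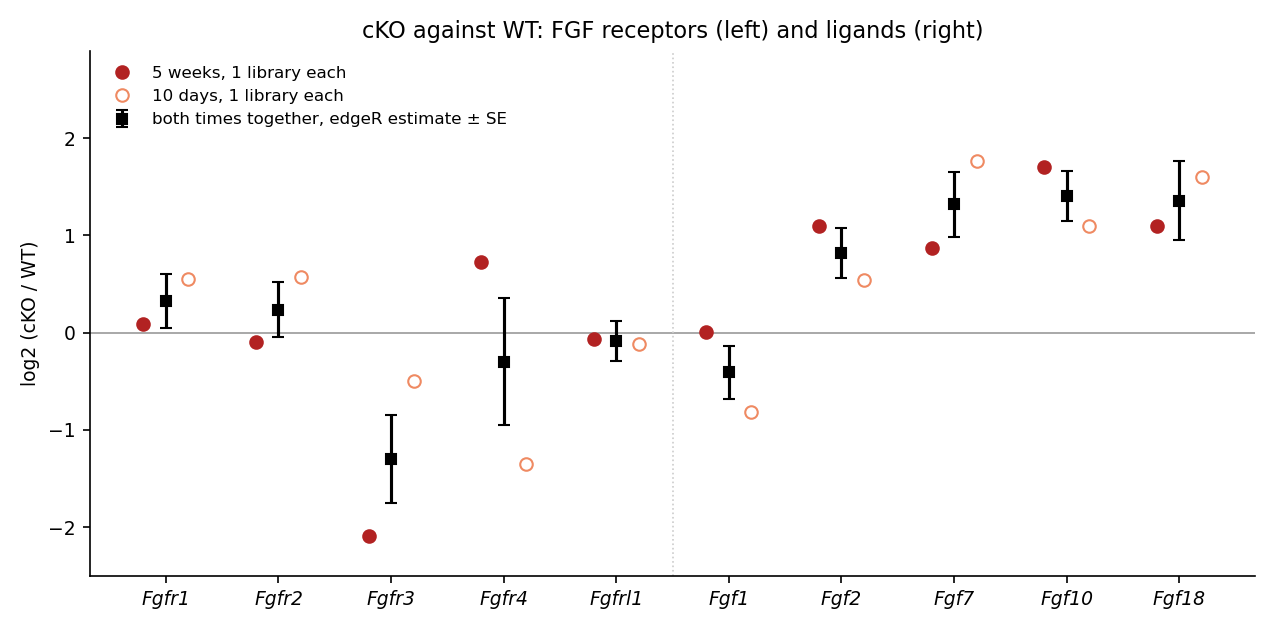
Log2 ratio of cKO over WT for the receptors and ligands (vertical axis), with the edgeR estimate over both times and its SE as black squares and the ratio at 5 weeks and at 10 days as filled and open circles, each from 1 library per genotype. Fgf2, Fgf7, Fgf10 and Fgf18 are above 0 at both times, Fgfr3 is below 0 at both, and Fgfr2 and Fgfr4 lie on opposite sides of 0 at the 2 times.

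The bases just upstream of the 3 genes that DESeq2 called are shown so that their promoters can be compared (RefSeq gene starts, GRCm38.p6, plus strand, 5′ to 3′). Capitals mark the C and G of each match to CNNGNNNNNNCNNG, adjacent cores of a p53-family half-site pair, a pattern that reads the same on both strands. Upstream windows of 250 bases were taken for 8 of the 10 genes, and none was taken for Fgfr1 or Fgf1. For Fgfr3 the run stops at the first base that GENCODE gives to an exon. The runs are chr5:33721474-33721673 for Fgfr3, chr2:126034408-126034657 for Fgf7 and chr13:118714449-118714698 for Fgf10, the last of which lies within the span that GENCODE gives to the gene.
Fgfr3: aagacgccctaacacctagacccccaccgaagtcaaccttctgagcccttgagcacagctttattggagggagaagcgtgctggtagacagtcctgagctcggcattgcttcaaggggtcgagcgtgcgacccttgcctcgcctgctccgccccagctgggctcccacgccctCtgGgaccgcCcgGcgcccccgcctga
Fgf7: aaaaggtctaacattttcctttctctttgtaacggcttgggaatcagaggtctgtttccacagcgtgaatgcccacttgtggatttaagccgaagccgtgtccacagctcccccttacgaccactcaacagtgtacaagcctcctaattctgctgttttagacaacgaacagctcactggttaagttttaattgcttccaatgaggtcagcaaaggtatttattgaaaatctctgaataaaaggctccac
Fgf10: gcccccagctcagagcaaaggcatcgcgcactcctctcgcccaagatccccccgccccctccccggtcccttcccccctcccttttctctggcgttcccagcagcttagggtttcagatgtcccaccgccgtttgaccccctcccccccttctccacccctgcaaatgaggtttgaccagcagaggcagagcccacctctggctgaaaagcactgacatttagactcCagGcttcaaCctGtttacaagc
The 250-base windows before the start held 66.8% G and C at Fgfr3, 43.6% at Fgf7 and 61.2% at Fgf10, against a median of 52.4% over 32851 windows. The pattern had 2 matches in this window of Fgfr3, of which the second runs past the printed end, 1 in that of Fgf10 and 0 in that of Fgf7, and 63.5% of all windows of this length held at least 1. The GC box GGGCGG, searched on both strands, had 3 matches at Fgfr3, 1 at Fgf10 and 0 at Fgf7, and 32.7% of all windows held it. The TATA box TATAAA and the core CATG, searched the same way, had 0 matches in each of the 3 windows, and 12.4% and 53.9% of all windows held them. A second RefSeq start of Fgfr3 was searched as well and its window had 3 matches to the pair pattern. A match is a description of letters and not a site.

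Fgf10, the mesenchymal ligand of FGFR2-IIIb (ENSMUSG00000021732.14, GRCm38 chromosome 13, 118669791 to 118792115), stood at 61.6 and 20.6 CPM in cKO at 5 weeks and 10 days, against 18.9 and 9.58 CPM in WT. The highest library was cKO at 5 weeks, and the lower cKO library was close to the higher WT library. In edgeR its log2 fold change was 1.41 (SE 0.256, n = 2 in each genotype), with an unadjusted p of 0.00193 and an adjusted p of 0.217. DESeq2 gave an adjusted p of 0.00268, and the edgeR fit without a filter on low counts gave 3.02e-05. Without the filter 1235 of 33332 genes passed, and in DESeq2 513 of 18917 did. Over the alternatives the adjusted p ran from 3.02e-05 to 0.929. Leaving out cKO at 5 weeks, with no time term in this and the other fits of 3 libraries, gave a log2 fold change of 0.51. Such fits mix genotype with time, since here cKO at 10 days was set against WT at both times. The log2 ratio within a time was 1.70 at 5 weeks and 1.10 at 10 days. An antisense gene, Gm16263, shares 123 exonic bases with Fgf10 and held between 7 and 34 counts per library.

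Fgf7, also called keratinocyte growth factor and another ligand of FGFR2-IIIb (ENSMUSG00000027208.14, chromosome 2, 126034658 to 126091185), stood at 17.4 and 16.1 CPM in cKO at 5 weeks and 10 days, against 9.49 and 4.67 CPM in WT. Both cKO libraries were close to each other and above both WT libraries. Fgf7 had a log2 fold change of 1.32 (SE 0.336), with an adjusted p of 0.290 in edgeR, 0.0392 in DESeq2 and 0.00479 without a filter, in a range over the alternatives of 0.00479 to 0.871. The log2 ratio was 0.87 at 5 weeks and 1.77 at 10 days. Leaving out WT at 10 days gave a log2 fold change of 0.82. Added together, Fgf7 and Fgf10 stood at 18.7 and 9.41 RPKM in cKO at 5 weeks and 10 days, against 7.02 and 3.52 RPKM in WT.

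Fgf18, a ligand of the Fgf8 subfamily (ENSMUSG00000057967.12, chromosome 11, 33117430 to 33147400), was sparse, with 177 and 81 counts in cKO at 5 weeks and 10 days, against 186 and 28 counts in WT. Scaled to depth these were 5.21 and 2.55 CPM in cKO, against 2.42 and 0.813 CPM in WT. The cKO library at 10 days lay only just above the WT library at 5 weeks. Its log2 fold change of 1.36 (SE 0.404, edgeR adjusted p = 0.337) became 0.63 when cKO at 5 weeks was left out and 2.25 when WT at 5 weeks was left out. The log2 ratio within a time was 1.09 at 5 weeks and 1.60 at 10 days.

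Fgf2, basic FGF, which lacks a classical signal peptide (ENSMUSG00000037225.13, chromosome 3, 37348346 to 37410108), stood at 31.8 and 19.5 CPM in cKO at 5 weeks and 10 days, against 14.8 and 13.4 CPM in WT. Its WT libraries were close together and both cKO libraries lay above them. Fgf2 had a log2 fold change of 0.82 (SE 0.259, edgeR adjusted p = 0.356), and of 0.44 when cKO at 5 weeks was left out. Fgf2 shares 640 exonic bases with Nudt6 on the opposite strand, which held between 71 and 259 counts per library, and no source used here says if reads were counted by strand.

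Fgf1, acidic FGF, which binds all of the signalling FGF receptors (ENSMUSG00000036585.16, chromosome 18, 38838673 to 38929472), was the ligand that did not follow the others. It stood at 35.8 and 30.4 CPM in cKO at 5 weeks and 10 days, against 35.7 and 53.7 CPM in WT. WT at 10 days was the high library and the other 3 were close together. Its log2 fold change was -0.41 (SE 0.270, edgeR adjusted p = 0.622).

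The make-up of the ligand transcripts differed by library on the per-length scale. Fgf1 was 19.1% and 27.9% of the summed RPKM of the 5 ligands in cKO at 5 weeks and 10 days, against 36.8% and 61.4% in WT. Fgf10 was 39.0% and 22.3% in cKO, against 23.0% and 13% in WT. The summed level was 34.4 and 20.0 RPKM in cKO, against 17.8 and 16 RPKM in WT. These shares are a description of 4 libraries with no test.

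**Figure D3:**
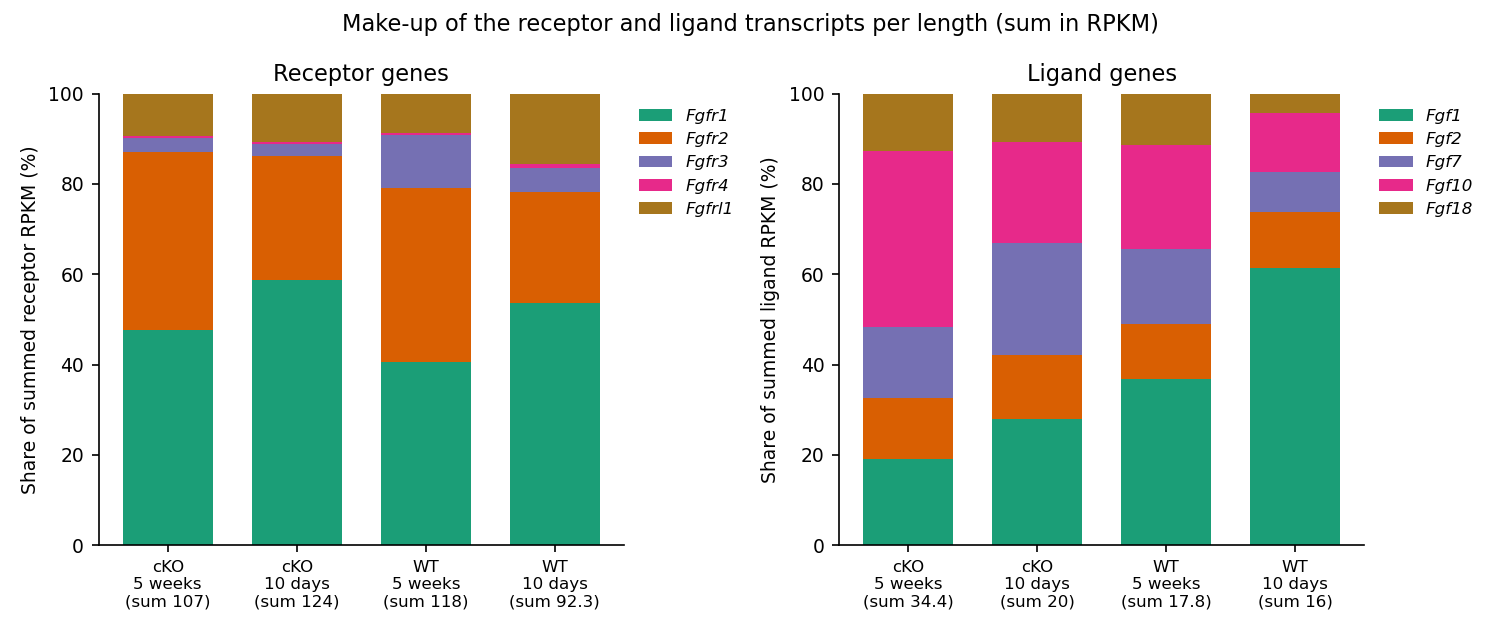
Share of each gene in the summed RPKM of the 5 receptors (left) and the 5 ligands (right), in percent, with 1 stacked bar per library and the sum under it. The Fgf1 block is largest in WT at 10 days (61.4%), the Fgf10 block in cKO at 5 weeks (39.0%), and the Fgfr3 block in WT at 5 weeks (11.9%).

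Among the receptors Fgfr3 (ENSMUSG00000054252.18, chromosome 5, 33721674 to 33737068), known for restraining bone growth, was the lowest in cKO relative to WT. It stood at 23.4 and 24.8 CPM in cKO at 5 weeks and 10 days, against 100.02 and 35.0 CPM in WT. The cKO libraries were alike, and WT at 5 weeks stood apart from the other 3. Fgfr3 had a log2 fold change of -1.30 (SE 0.455), with an adjusted p of 0.419 in edgeR, 0.0495 in DESeq2 and 5.64e-05 without a filter. Over the alternatives the adjusted p ran from 5.64e-05 to 0.898. Leaving out WT at 10 days gave a log2 fold change of -2.05 and leaving out WT at 5 weeks gave -0.54. Fgfr3 was 3.06% and 2.80% of the summed receptor RPKM in cKO at 5 weeks and 10 days, against 11.9% and 5.30% in WT. An opposite-strand gene model, G630022F23Rik, shares 998 exonic bases with Fgfr3 and held at most 14 counts in a library.

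Fgfr1 (ENSMUSG00000031565.18, chromosome 8, 25513654 to 25575718), abundant in mesenchyme, stood at 505 and 717 CPM in cKO at 5 weeks and 10 days, against 473 and 489 CPM in WT. The cKO library at 10 days stood apart, and the other 3 lay close together. The log2 fold change was 0.32 (SE 0.278, edgeR adjusted p = 0.712). Fgfr2, the receptor of Fgf7 and Fgf10 (ENSMUSG00000030849.18, chromosome 7, 130162451 to 133123350), stood at 436 and 349 CPM in cKO, against 468 and 234 CPM in WT. Its genotypes overlapped, with both 5-week libraries above both 10-day libraries. Its log2 fold change was 0.24 (SE 0.280, edgeR adjusted p = 0.796), and its ratio of cKO to WT was 0.933 at 5 weeks and 1.49 at 10 days. Log2 ratios of opposite sign at the 2 times were found in 39.9% of all genes tested. The long annotated span of Fgfr2 runs over many neighbours, and 314 of its exonic bases are shared with Ctbp2.

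Per length the ratio of Fgfr2 to Fgfr1 was 0.827 and 0.465 in cKO at 5 weeks and 10 days, against 0.944 and 0.458 in WT. Both 5-week ratios were above both 10-day ratios, and the genotypes overlapped. These ratios rest on summed exon length. With the longest protein-coding transcript as length, Fgfr2 was above Fgfr1 in both 5-week libraries. Fgfrl1 (ENSMUSG00000008090.14, chromosome 5, 108692382 to 108706924) stood at 27.7 and 37.2 CPM in cKO, against 28.9 and 40.3 CPM in WT, with a log2 fold change of -0.09 (SE 0.208, edgeR adjusted p = 0.906). Fgfr4, a receptor best known from liver (ENSMUSG00000005320.9, chromosome 13, 55152640 to 55168759), had 69 and 35 counts in cKO at 5 weeks and 10 days, against 93 and 99 counts in WT. These were 2.03 and 1.10 CPM in cKO, against 1.21 and 2.87 CPM in WT, so that the genotypes overlapped and differed in opposite directions at the 2 times. Its log2 fold change was -0.30 (SE 0.650, edgeR adjusted p = 0.898).

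The time comparison asked which genes differed between 5 weeks and 10 days with genotype held constant. Fgf10 and Fgf18 were 2.43- and 2.45-fold higher at 5 weeks, Fgfr2 was 1.58-fold higher, and Fgfrl1 was 1.37-fold lower. Fgf10 had a log2 fold change of 1.28 (SE 0.255, unadjusted p = 0.00297, edgeR adjusted p = 0.385) and Fgf18 of 1.29 (SE 0.405, unadjusted p = 0.0209). For Fgfr2 the value was 0.66 (SE 0.281) and for Fgfrl1 -0.45 (SE 0.208). None of the 10 genes passed the adjusted threshold in edgeR, where 0.0634% of all genes did, and 2 had an unadjusted p under 0.05, where 5.35% did. Both were higher at 5 weeks, where 3.09% of all genes were. DESeq2 called Fgf10 (adjusted p = 0.0223, in a range over the alternatives of 0.00022 to 1.0), where it called 1.01% of all genes. The times did not overlap in 2 of the 10 genes, Fgfr2 and Fgfrl1, where 26.8% of all genes tested did not. Fgfr2 was higher in both 5-week libraries, where 13.3% of all genes were. Leaving out cKO at 5 weeks, with no genotype term, gave a log2 fold change of 0.32 for Fgf10 and 0.52 for Fgf18, and leaving out WT at 10 days gave 0.58 for Fgf18. Such fits mix time with genotype. The log2 ratio of 5 weeks over 10 days was 1.58 in cKO and 0.97 in WT for Fgf10, and 1.02 and 1.52 for Fgf18.

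Marker transcripts of cell types of the gland were measured beside these genes, including types that the sort was meant to remove. The 13 basal markers (Krt5 and Krt14 the most abundant) summed to 2010 and 1867 CPM in cKO at 5 weeks and 10 days, against 18992 and 5767 CPM in WT, with 11 of them lower in cKO at both times and 0 higher. Fgfr3 was lower in the same libraries, by log2 ratios of -2.09 at 5 weeks and -0.50 at 10 days, where the basal sum had -3.24 and -1.63. Per 10000 CPM of basal markers Fgfr3 stood at 116.6 and 132.7 CPM in cKO, against 52.7 and 60.8 CPM in WT. The basal list includes the targeted gene Trp63. Its sum can be lower through fewer cells or through less marker RNA per cell, so these are not values per basal cell. The 14 epidermal differentiation markers (Krt6a and Krt10 the most abundant) were lower in the same libraries (187 and 136 CPM in cKO, against 3989 and 761 CPM in WT), with 13 of 14 lower at both times and Flg and Sprr1b at 0 in at least 1 library. The part of these cells in the Fgfr3 difference was not tested.

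The 12 fibroblast markers (Col3a1 and Gsn the most abundant) summed to 64176 and 41238 CPM in cKO at 5 weeks and 10 days, against 33795 and 41733 CPM in WT. The log2 ratio of the sums was 0.93 at 5 weeks and -0.02 at 10 days, with 6 of 12 higher in cKO at both times and 0 lower. Col3a1 had log2 ratios of 1.48 at 5 weeks and -0.88 at 10 days, and Gsn had 0.15 and 1.69. The sum at 10 days, on which the values below rest, thus holds abundant genes that differed in opposite directions. Per 10000 CPM of fibroblast markers Fgf10 stood at 9.59 and 4.98 CPM in cKO, against 5.58 and 2.30 CPM in WT, higher in cKO at each time but overlapping between genotypes. On the same scale Fgf7 stood at 2.71 and 3.89 CPM in cKO, against 2.81 and 1.12 CPM in WT. Its log2 ratio was then -0.05 at 5 weeks and 1.80 at 10 days. For Fgf18 these ratios were 0.18 and 1.67, and for Fgf2 0.17 and 0.56. Fgfr1 on this scale had ratios of -0.83 at 5 weeks and 0.57 at 10 days, so that it was lower in cKO at 5 weeks.

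Several other cell types had higher marker sums in cKO. The 8 adipocyte markers (Lpl and Fabp4 the most abundant) summed to 1454 and 1076 CPM in cKO at 5 weeks and 10 days, against 578 and 584 CPM in WT, with 6 of 8 higher at both times. CD31 marks endothelial cells and CD45 marks leukocytes, so the sort was meant to remove endothelial, lymphocyte and myeloid cells. The 9 endothelial markers (Vwf and Tek the most abundant) summed to 331 and 216 CPM in cKO, against 201 and 170 CPM in WT, with 8 of 9 higher at both times. The 9 lymphocyte markers summed to 53.3 and 30.9 CPM in cKO, against 19.8 and 16.7 CPM in WT, with 9 of 9 higher. Those 3 sums and the levels of Fgf10, Fgf18, Fgf7 and Fgf2 were all higher in cKO at both times. The 9 myeloid markers summed to 240 and 190 CPM in cKO, against 166 and 205 CPM in WT, higher in cKO at 5 weeks only. Cd14 and Lyz2 were the most abundant, and 7 of 9 were higher at both times. Cd14 alone stood at 138 and 95.5 CPM in cKO, against 128 and 139.5 CPM in WT. The rest of the myeloid sum was higher in cKO at both times. The 8 pericyte and vascular smooth muscle markers summed to 1118 and 1010 CPM in cKO, against 940 and 1068 CPM in WT. Myh11 and Notch3 were the most abundant, and 5 of 8 were higher at both times. Myh11 alone stood at 484 and 456 CPM in cKO, against 438 and 674 CPM in WT. Apart from Myh11 this sum was higher in cKO at both times. The 8 skeletal muscle markers (Actn3 and Tnnt3 the most abundant) summed to at most 10.9 CPM in a library. The 15 luminal markers (Krt8 and Krt18 the most abundant) summed to 8188 and 10182 CPM in cKO, against 8492 and 8915 CPM in WT, with 5 of 15 higher and 4 lower at both times. The part of any of these cells in the ligand differences was not tested.

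**Figure D4:**
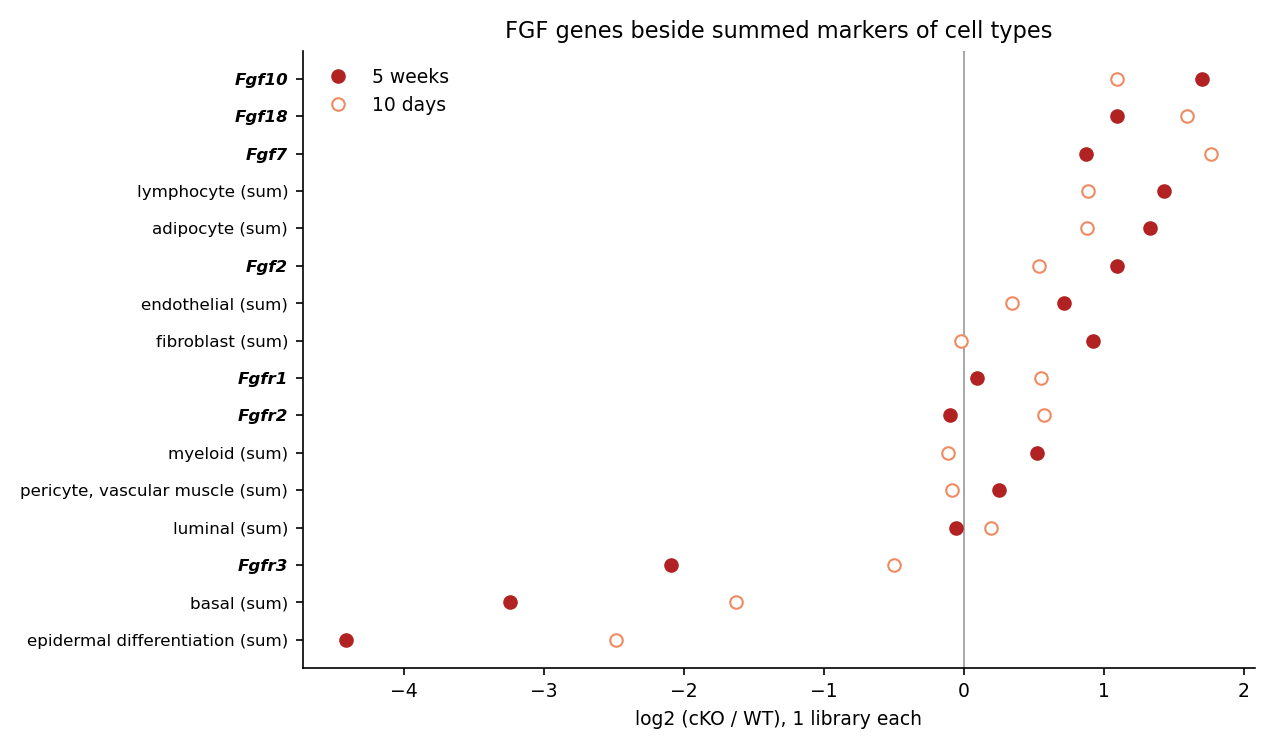
Log2 ratio of cKO over WT (horizontal axis) for 7 of the FGF genes, in bold, and for the summed CPM of markers of each cell type except skeletal muscle, at 5 weeks (filled) and 10 days (open), from 1 library per genotype at each time. Fgfr3 lies on the side of the basal and epidermal sums and less far from 0, while Fgf10, Fgf7 and Fgf18 lie at the other end beside the lymphocyte and adipocyte sums.

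Of the wider FGF pathway, 0 genes passed the adjusted threshold for genotype in edgeR in any of the 5 other lists. DESeq2, which called 2.71% of all genes, called 1 of 8 other ligands tested and 1 of 15 feedback or target genes (lower). Of 23 co-receptor or heparan sulphate genes it called 3 (2 lower and 1 higher). These denominators count genes tested in edgeR, and DESeq2 gave no adjusted p for Fgf9, Fgf12, Fgf17 or Fgfbp3. It called 0 of 19 relay genes and 0 of 7 splicing regulators, of which 1 and 2 had an unadjusted p under 0.05 in edgeR. The genes called by DESeq2 were Fgf23, Fgfbp1 and Sdc1, Flrt2 and Fosl1. Of 17 other FGF ligands, 8 had enough counts to test and 1 had an unadjusted p under 0.05. That was Fgf23, the bone hormone that controls phosphate, at 3.18 and 6.45 CPM in cKO at 5 weeks and 10 days, against 1.01 and 0.406 CPM in WT (log2 fold change 2.72, SE 0.697, edgeR adjusted p = 0.316). It held between 14 and 205 counts per library. Fgf13, an intracellular FGF that does not act through these receptors, stood at 7.13 and 7.52 CPM in cKO, against 5.06 and 3.40 CPM in WT (log2 fold change 0.82, SE 0.356). Fgf11, of the same intracellular group and the most abundant by CPM, had a log2 fold change of 0.15 (SE 0.326). The ligands with too few counts to test were Fgf3, Fgf4, Fgf5, Fgf6, Fgf8, Fgf14, Fgf15, Fgf20 and Fgf22.

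Co-receptor and heparan sulphate genes had a median log2 fold change of 0.03, with 4 of 23 tested lower and 3 higher at an unadjusted p under 0.05, where 5.8% of all genes were lower and 5.8% higher. The lowest was Fgfbp1, a secreted carrier that frees FGFs from matrix, at 3.68 and 1.42 CPM in cKO at 5 weeks and 10 days, against 20.1 and 7.43 CPM in WT. Its log2 fold change was -2.42 (SE 0.315, edgeR adjusted p = 0.125), with log2 ratios of -2.44 at 5 weeks and -2.35 at 10 days. Sdc1, the heparan sulphate proteoglycan syndecan-1, stood at 181 and 105 CPM in cKO, against 545 and 265 CPM in WT (log2 fold change -1.46, SE 0.235, edgeR adjusted p = 0.187). Both were lower in cKO at each time, as were the basal marker sums, whose part was not tested. The other genes under that p, named after their values were seen, were Hs6st1 (-0.87) and Sdc3 (-0.73) on the lower side and Flrt2 (0.96), Gpc6 (0.65) and Sdc2 (0.54) on the higher side. Sdc4, the most abundant gene of the list, had a log2 fold change of 0.04 (SE 0.361).

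Feedback and target genes of FGF signalling had a median log2 fold change of 0.02, with 3 of 15 tested lower and 0 higher at an unadjusted p under 0.05, where 5.8% of all genes were lower and 5.8% higher. Those 3 were Fosl1, a FOS-family factor, at -1.43 (SE 0.431), the cyclin gene Ccnd1 at -0.88 (SE 0.304) and the ERK phosphatase gene Dusp5 at -0.65 (SE 0.203). Dusp6, another ERK phosphatase and the most abundant of the list, stood at 204 and 180 CPM in cKO at 5 weeks and 10 days, against 248 and 427 CPM in WT (log2 fold change -0.76, SE 0.310, edgeR adjusted p = 0.437). The Sprouty inhibitors Spry1, Spry2 and Spry4 had values of 0.01, 0.02 and 0.36, where Spry1 had log2 ratios of 0.59 at 5 weeks and -0.58 at 10 days. The ETS factors Etv1, Etv4 and Etv5 had values of 0.59, -0.42 and -0.06, and these 6 genes were named after values of the list were seen. These genes also answer to other receptor tyrosine kinases.

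Adaptor and MAP kinase relay genes lay close to 0, with a median of 0.02, quartiles of -0.11 and 0.09, and 1 of 19 (Hras, a RAS gene, at -0.94 with SE 0.257) lower at an unadjusted p under 0.05, where 5.8% of all genes were lower. The kinase gene Map2k2 had a value of -0.39 (SE 0.200), and the phosphatase gene Ptpn11, among the more abundant of the list, had a value of -0.14 (SE 0.201). Among 7 regulators of receptor splicing the median was -0.30. The epithelial splicing factors Esrp1 and Esrp2, which favour the IIIb form, were the 2 genes of that list with an unadjusted p under 0.05, both lower, where 5.8% of all genes were lower. Esrp1 stood at 84.4 and 92.0 CPM in cKO, against 136.1 and 136.8 CPM in WT (log2 fold change -0.63, SE 0.194, edgeR adjusted p = 0.348), and Esrp2 at 49.1 and 50.8 CPM in cKO, against 94.3 and 73.2 CPM in WT (log2 fold change -0.73, SE 0.209, edgeR adjusted p = 0.325). Both genes were lower in each cKO library than in either WT library, as was the sum of the basal markers (log2 ratios of -3.24 at 5 weeks and -1.63 at 10 days), whose part was not tested. The luminal sum had ratios of -0.05 and 0.19. Ptbp1 and Hnrnph1, RNA-binding proteins and the most abundant of the list, had values of -0.45 (SE 0.245) and 0.25 (SE 0.269).

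**Figure D5:**
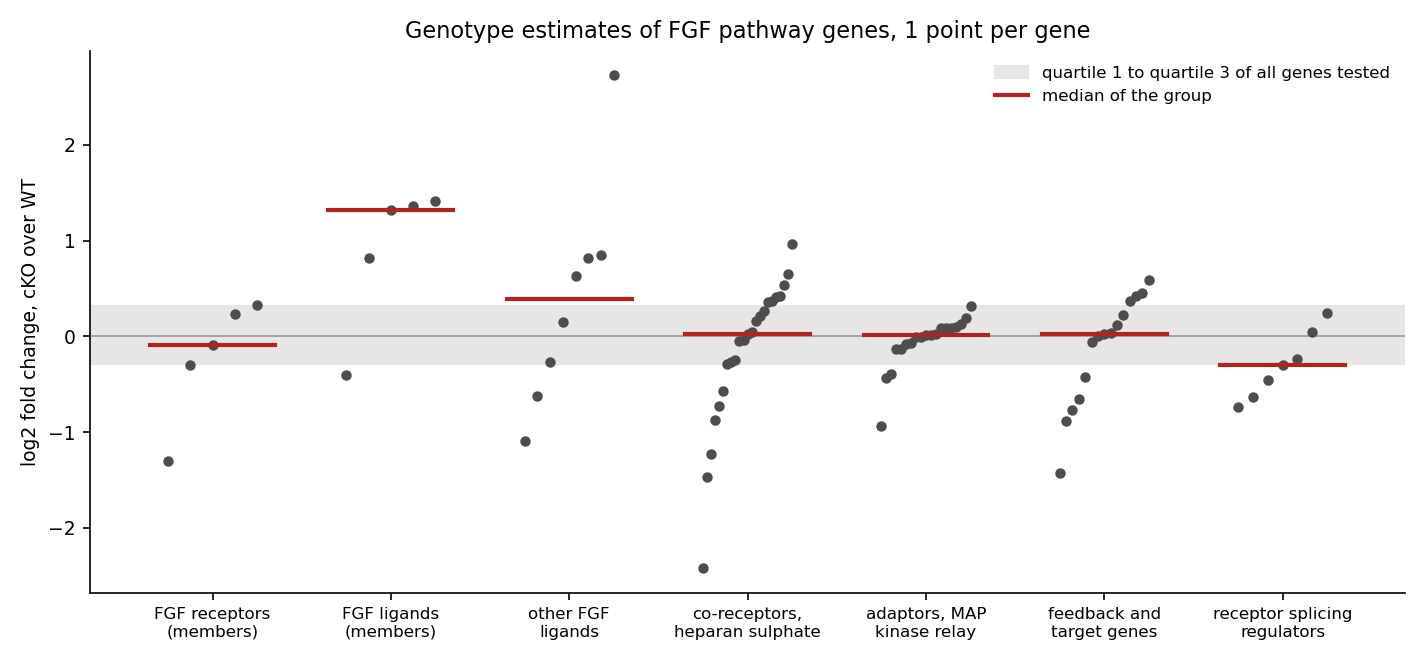
The edgeR log2 fold change of cKO over WT for each tested gene (points, vertical axis) of the member receptors, the member ligands and 5 further FGF pathway lists, with the group median as a red line and the lower to upper quartile of all genes tested, -0.29 to 0.32, as a grey band that describes single genes. Of the 5 member ligands 4 lie above 0, and Fgfbp1 at -2.42 and Fgf23 at 2.72 are the outermost points.

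Likeness of pattern was measured as the Euclidean distance between centred log2 CPM values over the 4 libraries, among 9805 genes with a mean of at least 10 CPM. Nearest to Fgfr3 were Lad1 (distance 0.09), Fam162a (0.24) and Trim29 (0.24), and 28 genes lay within 0.5. Lad1, which encodes the anchoring-filament protein ladinin, stood at 50.1 and 55.0 CPM in cKO at 5 weeks and 10 days, against 218 and 81.2 CPM in WT. Nearest to Fgf10 were Akr1c18 (0.23), Dpp4 (0.41) and Ednrb (0.43), and 6 genes lay within 0.5. Dpp4, a cell-surface peptidase gene, stood at 157.7 and 78.4 CPM in cKO, against 60.2 and 31.6 CPM in WT. Fgfr2 was nearest to Homer2 (0.04), H2-Q7 (0.05) and Klf3 (0.09), and Fgfr1 to H2-T23, Mfsd12 and Zrsr1 (0.05, 0.05 and 0.06), but 404 and 2322 genes lay within 0.5 of these. Among the 10 members the nearest pairs were Fgfr1 with Fgfrl1 (0.51) and Fgf10 with Fgf18 (0.56), and the farthest was Fgfr3 with Fgf10 (2.97). With 4 libraries such distances are descriptions.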

How the data were processed

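RNA was sequenced from 4 libraries of sorted mouse mammary cells (2 cKO and 2 WT, 1 of each at 5 weeks and at 10 days after tamoxifen). The deposited values are estimated counts, 1 for each of 54393 gene identifiers and already whole numbers. The submitters' processing notes name Salmon and GRCm38 without a role or version, and no source used here names the authors' annotation. All 54393 identifiers matched GENCODE M21. Estimated counts divide reads shared between overlapping genes by a model.

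Low genes were removed by filterByExpr at a minimum count of 10, leaving 18917 genes with 99.9% of counts. After TMM scaling, edgeR 4.0.16 under R 4.3.3 fitted time and genotype together (robust quasi-likelihood, 1 residual degree of freedom). The F test of each term was adjusted by Benjamini-Hochberg over all genes tested (threshold 0.05). SE is the absolute log2 fold change over the square root of F. Log2 ratios within a time used a prior count of 2 and no test, since no residual is left for an interaction. DESeq2 1.42.0, other scalings and filters, models without the second term, and leaving out each library were the alternatives. The fit was tested on simulated data.

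The members and gene lists were chosen with earlier results of these data known. The genes named were the 10 members and Trp63. From each of the 5 other FGF lists came those passing for genotype in edgeR, up to 4, or, where fewer than 2 passed, the 2 smallest p-values and the 2 highest mean CPM. The 3 nearest genes to each of Fgfr1, Fgfr2, Fgfr3 and Fgf10 (names starting Gm or ending Rik passed over) and the most abundant markers were added. Some genes that this rule names are not reported here.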

Additional observations from a re-analysis of the deposited data

Results flagged for a closer look

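Fgfr2 and Fgfr4 had ratios of cKO to WT on opposite sides of 1 at the 2 times, each beyond counting error. The ratios at 5 weeks and 10 days were 0.933 and 1.49 for Fgfr2 (95% exact binomial intervals 0.915 to 0.951 and 1.45 to 1.53) and 1.68 and 0.383 for Fgfr4 (1.21 to 2.32 and 0.253 to 0.569). The intervals cover counting error only, and with 1 library of each genotype at each time the difference was not tested. Ratios of opposite sign were found in 39.9% of all genes tested.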

How the results depend on the processing

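For genotype the number of genes called over all genes was 11 (10 lower and 1 higher in cKO). It was 5 with DESeq2 size factors, 3 with upper-quartile factors, 1235 without a filter, 20 with a minimum count of 50, 513 in DESeq2, and 0 to 61 when a library was left out (0 without cKO at 5 weeks and 0 without cKO at 10 days, with 1173 and 1422 genes at an unadjusted p under 0.05, 2 when WT at 5 weeks was out and 61 when WT at 10 days was). Without the time term, which acts as the replicate block since each time holds 1 library of each genotype, it was 0, with 2182 genes at an unadjusted p under 0.05 in edgeR and 513 called by DESeq2 with the term. For time the number was 12, and it was 638 without a filter, 21 with a minimum count of 50, 192 in DESeq2, 1 without the genotype term (no replicate block), and 0 to 19 when a library was left out (0 without either 5-week library, with 862 and 671 genes at an unadjusted p under 0.05). A fit of 3 libraries takes the lone library to vary like the other pair, and it mixes genotype with time. The cause of these differences was not tested.

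No member passed in edgeR with all libraries and the filter. Of 60 genotype values of the 10 members under the alternatives that kept every library, 54 kept direction and stayed uncalled. The other 6 kept direction and passed: Fgf10, Fgf7 and Fgfr3, each without a filter (1235 of 33332 genes passed) and in DESeq2 (513 of 18917). Of 40 values with a library left out, 5 reversed, in fits that mix genotype with time. The log2 fold changes for genotype with a library left out ran from -0.25 to 0.75 for Fgfr2, -0.91 to 0.37 for Fgfr4 and -0.34 to 0.16 for Fgfrl1. Those for time ran from -0.35 to 1.72 for Fgfr3, -0.87 to 0.56 for Fgfr4, -0.62 to 0.24 for Fgf1, -0.16 to 0.95 for Fgf2 and -0.25 to 1.49 for Fgf7. Another scaling moved the median of all genes by less than 0.1. Fgf18 and Fgfr4, with 28 to 186 counts per library, are the members that depth limits most.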
